A study of Homo sapiens with 4 samples.

Results

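The GADD45 and BTG/TOB genes are 2 families of growth-arrest genes, and 8 of their members were followed here, of 61852 genes in the tables: GADD45A, GADD45B and GADD45G, and BTG1, BTG2, BTG3, TOB1 and TOB2. They were chosen by symbol, through the gene IDs of the tables, and each symbol matched a single gene. Poly(A) RNA was sequenced from H1299 cells, a human lung carcinoma line of the non-small-cell type, in 2 libraries of cells expressing CASM34 and 2 libraries of cells expressing wild-type p53 (p53WT). H1299 lacks p53 of its own (all 4 libraries carry the genotype label p53-/-), so both groups express an introduced p53, and the title of the series places CASM34 among synonymous mutations found in cancer. The labels name no treatment, and they do not say how p53 was introduced or whether a group is 1 clone. Cells with no p53 at all are not analysed here, and the only comparison is CASM34 against p53WT.

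GADD45 proteins are small stress-induced proteins without enzyme activity of their own. They bind the kinase MAP3K4, which feeds the p38 and JNK cascades, the mitotic kinase CDK1, the inhibitor p21 and the replication clamp PCNA, and GADD45A is a textbook transcriptional target of p53. BTG and TOB proteins share a domain that binds the deadenylases CNOT7 and CNOT8 of the CCR4-NOT complex and so promotes shortening of mRNA poly(A) tails, and TOB proteins also bind the poly(A)-binding protein PABPC1. Both families slow proliferation, and BTG2 and BTG3 are known p53 targets too.

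The estimated counts totalled 26906095 and 18086983 in the CASM34 libraries and 21717726 and 25969760 in the p53WT libraries. Whether replicate libraries came from different cultures is not stated, so each p-value reflects only library-to-library spread, possibly technical. The share of counts from mitochondrial DNA was 1.81% and 1.45% in CASM34 and 1.44% and 1.09% in p53WT. Levels of GC-rich genes also moved with the groups. The log2 level of each gene was taken relative to its mean over the 4 libraries. For each rise of 10 percentage points in transcript GC, it differed by 0.0741 and 0.0427 in CASM34 and -0.0588 and -0.0580 in p53WT. These slopes are relative to one another, so the positive and negative ones balance by construction. Of 10 epithelial line markers, KRT8 and KRT18 were high in every library (501 CPM or more, counts scaled to library size with TMM factors). EPCAM and CDH1 lay at 0.310 CPM or less. The remaining markers, KRT19, KRT7, CLDN4, NKX2-1, NAPSA and SFTPC, were also low, at 7.40 CPM or less. Of 8 leukocyte markers PTPRC, CD3E and MS4A1 had 0 counts in all libraries, and the summed TPM of the list, nearly all of it from the lysosomal gene CD68, was 96.8 to 98.0 in CASM34 and 88.6 to 94.0 in p53WT. None of 8 fibroblast and endothelial markers passed 2.79 CPM in any library. What GC content, mitochondrial share or CD68 contribute to the values below was not tested, except that fits with a GC offset are given. In bulk RNA a higher level in each cell and a larger share of cells with the transcript cannot be told apart.

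Of the 8 members 7 had enough counts to test, and 1 of them, GADD45A, rose in CASM34 while 0 fell. Rose and fell are used of genes with an edgeR adjusted p under 0.05 (quasi-likelihood test, Benjamini-Hochberg over the 15965 genes tested). Among all genes tested 1.61% rose and 0.345% fell, or 1.95% in either direction. BTG2 had the largest fold difference of the 7 but did not pass, and the other 5 had log2 fold changes of 0.061 or less. In 4 of the 7 genes (GADD45A, BTG2, TOB1 and TOB2) both CASM34 libraries lay above both p53WT libraries, an order found in 24.5% of all genes tested. The median log2 fold change of the 7 was 0.055, beside -0.00055 for all genes tested.

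**Figure D1:**
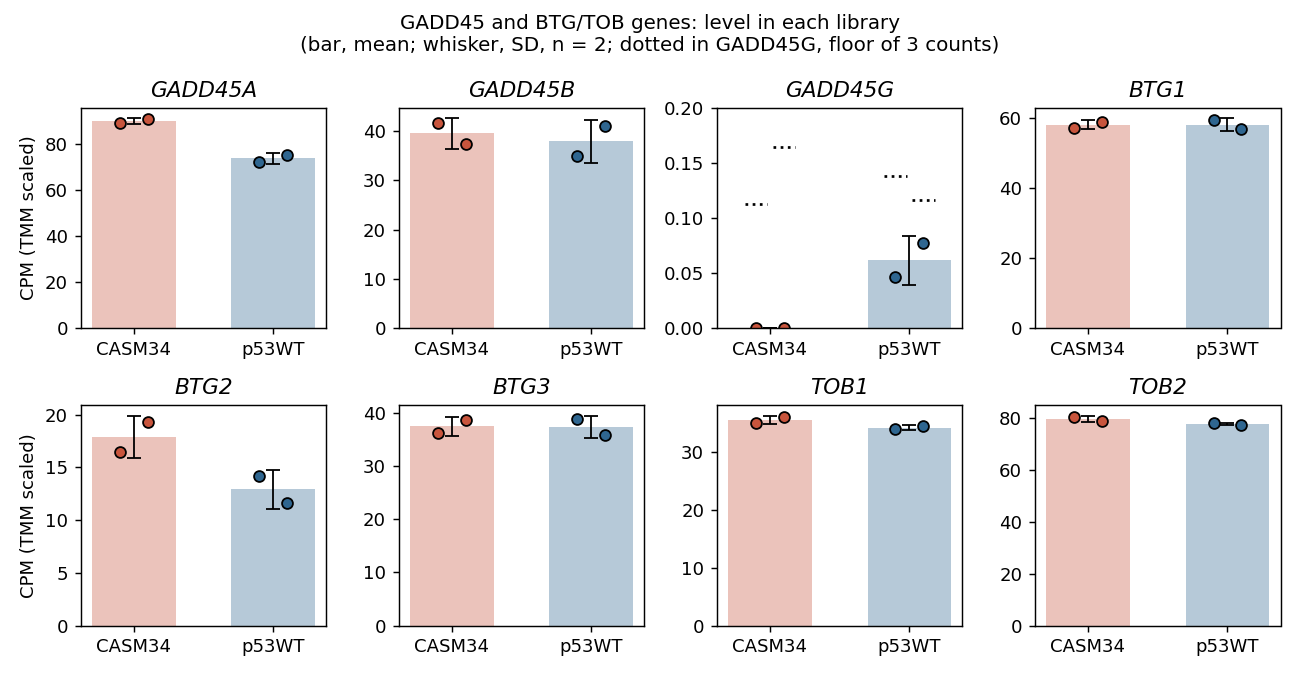
Level of each of the 8 genes in CPM (counts scaled to library size with TMM factors) in each library (points), with the group mean (bar) and SD (whisker, n = 2 each); each panel has its own axis, starting at 0. GADD45A and BTG2 show the clearest gaps between CASM34 and p53WT, and GADD45G lies under the floor of 3 counts (dotted) in all 4 libraries.

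GADD45A was the member that rose, and per length (by TPM) it was also the most abundant. GADD45A (ENSG00000116717.13, GRCh38 chromosome 1, 67685061 to 67688338, plus strand, coordinates of GENCODE 29) had 89.0 and 90.7 CPM in the CASM34 libraries, against 71.9 and 75.2 CPM in the p53WT libraries. The groups did not overlap, and the lowest CASM34 library lay above the highest p53WT library. The means were 89.9 ± 1.19 CPM in CASM34 and 73.5 ± 2.40 CPM in p53WT (SD, n = 2 each). The log2 fold change was 0.29 (SE 0.050, edgeR adjusted p = 0.0128), a 1.22-fold difference with a 95% interval from 1.13 to 1.31. These values rest on 2377 and 1655 counts in CASM34 and 1561 and 1944 counts in p53WT (all whole numbers). It did not pass without p53WT replicate 1, where the log2 fold change was 0.25 (edgeR adjusted p = 0.109). A GC and length offset, which takes out the trend of every library on transcript GC and length, left GADD45A at 0.19 (edgeR adjusted p = 0.0984). An effective length offset left it at 0.29 (edgeR adjusted p = 0.257), in a fit that called 0.0188% of all genes tested.

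GADD45B, a family member known for its induction by NF-kB and TGF-beta signals, did not pass. GADD45B (ENSG00000099860.9, chromosome 19, 2476122 to 2478259, plus strand) had 41.7 and 37.3 CPM in CASM34 libraries, against 34.8 and 41.0 CPM in p53WT libraries. The ranges of the groups overlapped. Its log2 fold change was 0.061 (SE 0.082, edgeR adjusted p = 0.755), and the 95% interval of the fold ran from 0.922 to 1.18. The direction was not stable: the value was 0.19 without p53WT replicate 2 and turned to -0.053 without p53WT replicate 1, to -0.028 without CASM34 replicate 1 and to -0.068 under the offset for GC and length.

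GADD45G, best known from cytokine responses and differentiation, was at the edge of detection. GADD45G (ENSG00000130222.11, chromosome 9, 89605013 to 89606555, plus strand) had 0 and 0 counts in the CASM34 libraries and 1 and 2 counts in the p53WT libraries. A floor of 3 counts per library stands for 0.112 and 0.164 CPM in CASM34 and 0.138 and 0.116 CPM in p53WT, covering counting error only, and all 4 values lie below it. No fold is given, and a difference in GADD45G was not detectable at this depth.

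Per length, GADD45A made up most of its family. Its deposited TPM (counts divided by effective length and scaled to the same total in each library) was 105 and 108 in CASM34 and 85.9 and 88.5 in p53WT, or 67.6% and 72% of the summed TPM of the family in CASM34 and 67.0% and 65.4% in p53WT. The summed TPM of the 3 GADD45 genes was 155.8 and 149.9 in CASM34 libraries and 128 and 135 in p53WT libraries, with no overlap. GADD45A stood at 2.08 and 2.57 times the TPM of GADD45B in CASM34 and at 2.03 and 1.90 times in p53WT. The log2 ratio was 0.24 higher in CASM34 with no overlap, and the exact permutation test (two-sided) gave p = 0.33, the smallest p that 2 against 2 libraries allow (0.667 adjusted over the 4 pairs of genes compared).

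**Figure D2:**
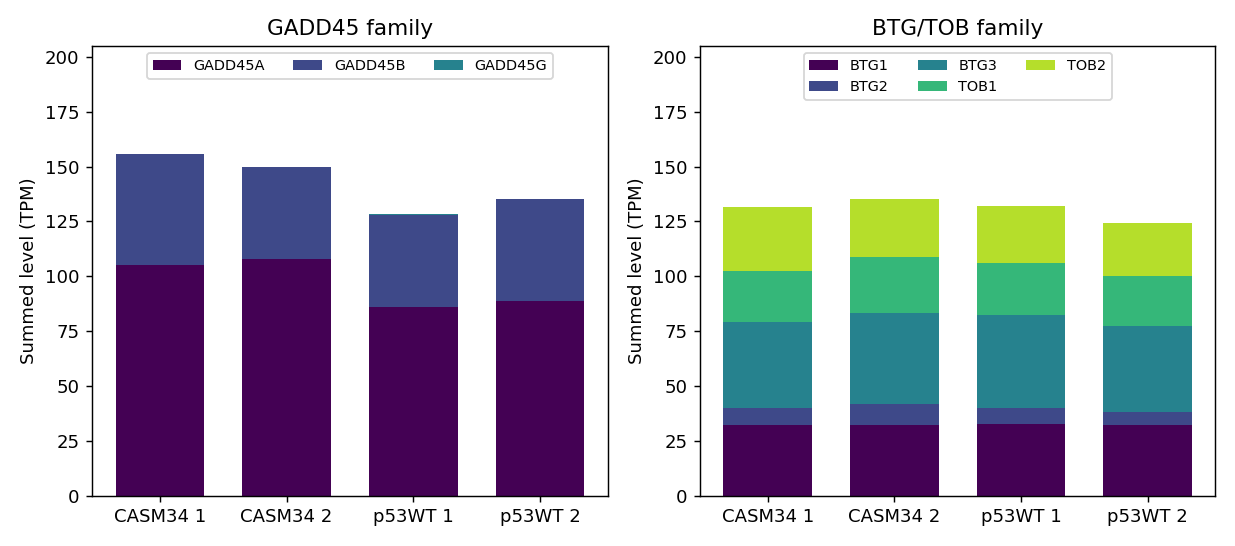
Deposited TPM of the GADD45 genes (left) and the BTG/TOB genes (right), stacked for each library. The GADD45 total is higher in both CASM34 libraries (155.8 and 149.9 TPM) than in both p53WT libraries (128 and 135 TPM), mostly through GADD45A, while the BTG/TOB totals overlap.

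BTG2 had the largest fold difference and the lowest level of the tested members. BTG2 encodes an immediate-early antiproliferative protein (ENSG00000159388.6, chromosome 1, 203305491 to 203309602, plus strand) and had 16.5 and 19.3 CPM in CASM34 libraries, against 14.2 and 11.6 CPM in p53WT libraries. Both CASM34 libraries lay above both p53WT libraries, though the libraries within each group also stood apart. The means were 17.9 ± 2.00 CPM in CASM34 and 12.9 ± 1.85 CPM in p53WT (SD, n = 2 each). The log2 fold change was 0.47 (SE 0.12, edgeR adjusted p = 0.0660), a 1.39-fold difference whose unadjusted 95% interval ran from 1.16 to 1.66, so the difference failed the correction over all genes. It rests on 441 and 353 counts in CASM34 and 309 and 300 counts in p53WT. BTG2 passed at 0.46 when low-count genes were kept in the fit (edgeR adjusted p = 0.00230). That fit called 2.97% of its genes, beside 1.95% of the genes tested with the filter. BTG2 lay at 0.59 without CASM34 replicate 1 and at 0.33 without p53WT replicate 2. Each of these 2 fits leaves 1 library in a group, whose spread then cannot be seen. The GC and length offset left BTG2 at 0.45 (edgeR adjusted p = 0.121). The TPM of GADD45A was 13.1 and 11.2 times that of BTG2 in CASM34 and 11.4 and 15.4 times in p53WT, with overlapping ranges (exact permutation p = 0.667, two-sided; 0.889 adjusted over the 4 pairs).

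BTG1, which binds the same deadenylases and the methyltransferase PRMT1, had almost the same level in both groups. BTG1 (ENSG00000133639.6, chromosome 12, 92140278 to 92145897, minus strand) had 57.2 and 58.9 CPM in CASM34 libraries, against 59.4 and 56.7 CPM in p53WT libraries. The CASM34 values lay inside the p53WT range. Its 95% interval of the fold ran from 0.921 to 1.09 (edgeR adjusted p = 0.999), so the interval leaves out a rise of the size fitted for GADD45A. BTG2 stood at 0.251 and 0.300 of the TPM of BTG1 in CASM34 and at 0.232 and 0.177 in p53WT, again with no overlap (log2 difference 0.44, exact permutation p = 0.33, two-sided; 0.667 adjusted over the 4 pairs).

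BTG3, a member known to bind the transcription factor E2F1, also had overlapping ranges. BTG3 (ENSG00000154640.15, chromosome 21, 17593653 to 17612947, minus strand) had 36.2 and 38.7 CPM in CASM34 libraries, against 38.9 and 35.8 CPM in p53WT libraries. Its 95% interval of the fold ran from 0.904 to 1.11 (edgeR adjusted p = 0.991). BTG3 had fractional counts in 4 of 4 libraries, the mark of reads that were divided among gene models. It overlaps the antisense RNA BTG3-AS1 by 1204 bases in GENCODE 29. That RNA had 0.562 and 1.32 CPM in CASM34 and 0.460 and 0.503 CPM in p53WT (edgeR adjusted p = 0.406). The strand setting of the counting is not given in the sources used here, so the reads of this pair may not be separated.

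TOB1 and TOB2 encode the larger members of the family, with a tail that binds PABPC1. TOB1 (ENSG00000141232.5, chromosome 17, 50862223 to 50867978, minus strand) had 35.1 and 36.1 CPM in CASM34 libraries, against 33.9 and 34.4 CPM in p53WT libraries. TOB2 (ENSG00000183864.5, chromosome 22, 41433492 to 41447023, minus strand) had 80.4 and 78.6 CPM in CASM34 libraries, against 77.9 and 77.3 CPM in p53WT libraries. In both genes the CASM34 libraries were the higher ones, by small margins that did not pass: the log2 fold changes were 0.055 for TOB1 (SE 0.064, edgeR adjusted p = 0.719) and 0.036 for TOB2 (SE 0.049, edgeR adjusted p = 0.759). The intervals of the fold ran from 0.943 to 1.14 for TOB1 and from 0.953 to 1.10 for TOB2. Under the GC and length offset TOB2 lay on the other side of 0, at -0.10. TOB1 overlaps TOB1-AS1 by 1300 bases and had fractional counts in 3 libraries. TOB1-AS1 had 2.73 and 2.69 CPM in CASM34 and 1.89 and 3.02 CPM in p53WT.

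TOB2 values depended on the length model. Its effective length, which the authors' RSEM run weights by isoform, was 3256 and 3515 bases in CASM34 and 3549 and 3753 bases in p53WT. Its TPM was 29.1 and 26.5 in CASM34 and 26.3 and 24.3 in p53WT, and with an effective length offset the log2 fold change was 0.13 (edgeR adjusted p = 0.513). GADD45A, by contrast, had effective lengths of 997 and 995 bases in CASM34 and 1003 and 1003 bases in p53WT.

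By mean TPM the members fell in the same order in both groups: GADD45A, GADD45B, BTG3, BTG1, TOB2, TOB1, BTG2 and GADD45G. GADD45B (46.3 ± 6.0 TPM in CASM34 and 44.5 ± 3.08 TPM in p53WT) and BTG3 (40.4 ± 1.98 TPM in CASM34 and 40.8 ± 2.28 TPM in p53WT) were neighbours whose means in CASM34 differed by less than the SD of GADD45B, and their ranges overlapped in p53WT (SD, n = 2 each). TOB2 averaged 27.8 ± 1.90 TPM in CASM34 and 25.3 ± 1.44 TPM in p53WT, close above TOB1 with 24.4 ± 1.31 TPM in CASM34 and 23.1 ± 0.552 TPM in p53WT (SD, n = 2 each). The remaining neighbours did not overlap in either group. Among all genes tested GADD45A stood at the 90.2nd percentile of mean TPM and BTG2 at the 43.2nd. The summed TPM of the 5 BTG/TOB genes was 132 and 135 in CASM34 and 132 and 124 in p53WT, with overlap. BTG2 made up 6.10% and 7.11% of that sum in CASM34 and 5.69% and 4.61% in p53WT. BTG4, the remaining human BTG gene, which is known from oocytes, had 4 and 2 counts in CASM34 and 2 and 8 counts in p53WT and was not tested.

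The transcript GC content of the members ranged from 46.2% for BTG3 to 66.0% for GADD45G, beside a median of 50.1% for all genes tested. Over the genes tested, the Spearman correlation between transcript GC and log2 fold change was 0.47, given as a description across genes that share the same 4 libraries. GADD45A (58.4% GC), TOB2 (59.4%) and GADD45B (60.2%) lie where the other genes shifted upward: genes within 1 percentage point of each had median log2 fold changes of 0.072, 0.085 and 0.11. BTG2 (51.6% GC) lies where the median was -0.0068, and its own value was 0.47. BTG3, BTG1 and TOB1 had between 46.2% and 48.2% GC, where the medians lay between -0.052 and -0.031. With the offset for GC content and length 0 of the 7 members passed by edgeR, and 0.363% of all genes did.

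**Figure D3:**
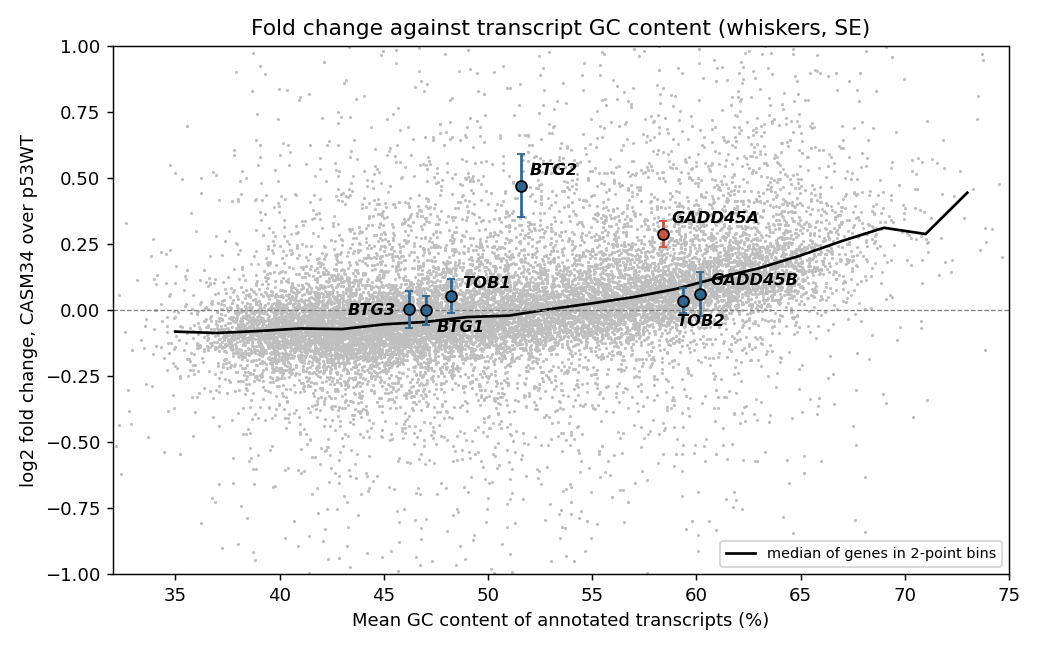
Log2 fold change of each tested gene (grey; genes beyond the axes are left out) against the mean GC content of its transcripts, with the median in bins of 2 percentage points (line) and 7 members (points, whiskers SE; red passed by edgeR). BTG2 lies well above the line at 51.6% GC, GADD45A above it at 58.4%, and GADD45B and TOB2 slightly below it.

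The promoters of 7 members were matched by symbol in a RefSeq table of windows from 250 bases before to 50 bases after the start site (build GRCh38.p14). GADD45A is not among them. BTG2, with the largest fold difference, is printed beside BTG1 of its own family and GADD45B of the other, because p53 acts through promoter and nearby sequence. None of them passed (edgeR adjusted p = 0.0660 for BTG2, 0.999 for BTG1 and 0.755 for GADD45B). Capitals mark CCAAT (the CCAAT box), TATAAA (the TATA box), CACGTG (the E-box) and TGACG (the core of the cAMP response element), each searched on both strands and shown on the gene's strand.
BTG2 promoter, chr1:203305269-203305568, plus strand: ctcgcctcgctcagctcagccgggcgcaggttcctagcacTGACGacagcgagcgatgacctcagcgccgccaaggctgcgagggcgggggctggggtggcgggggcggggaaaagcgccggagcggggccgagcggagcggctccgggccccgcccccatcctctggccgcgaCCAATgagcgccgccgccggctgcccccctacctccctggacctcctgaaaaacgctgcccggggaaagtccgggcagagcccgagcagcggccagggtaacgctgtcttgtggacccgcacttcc
BTG1 promoter, chr12:92145797-92146096, minus strand: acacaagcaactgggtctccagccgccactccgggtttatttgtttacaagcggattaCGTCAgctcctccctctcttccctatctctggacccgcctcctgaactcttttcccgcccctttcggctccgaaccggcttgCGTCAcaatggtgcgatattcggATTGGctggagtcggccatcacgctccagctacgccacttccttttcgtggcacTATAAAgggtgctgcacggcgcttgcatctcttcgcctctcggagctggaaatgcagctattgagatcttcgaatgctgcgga
GADD45B promoter, chr19:2475877-2476176, plus strand: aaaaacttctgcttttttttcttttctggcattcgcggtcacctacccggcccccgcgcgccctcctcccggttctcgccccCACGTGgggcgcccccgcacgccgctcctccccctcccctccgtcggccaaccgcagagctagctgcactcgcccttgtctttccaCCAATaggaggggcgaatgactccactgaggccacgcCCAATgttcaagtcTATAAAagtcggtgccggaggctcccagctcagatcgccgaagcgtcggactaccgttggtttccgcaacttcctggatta
The BTG2 window is 73.3% GC and holds a CCAAT box 76 bases before the start site, a motif present in 34.6% of 35116 windows. It has no TATAAA, which BTG1 holds 33 bases and GADD45B 31 bases before the start site and which 11.5% of all windows hold. TGACG was found in BTG2 and, in reverse, at 2 places in BTG1 (24.6% of all windows), and CACGTG in GADD45B (7.26% of all windows). No 2 marked motifs overlap within a printed window. The exact decamer consensus of the p53 response element was found in 6.63% of all windows and in 0 of the windows of the 7 members. Decamers with mismatches and sequence outside the windows were not searched. The 0 therefore does not show that these genes lack a p53 element. These matches describe letters in the windows and were not tested for binding.

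The 3' UTRs of the members, taken as the longest in GENCODE 29, held between 0 and 5 copies of ATTTA, the core of AU-rich elements that mark unstable mRNAs. GADD45A had 2 copies in 564 bases and BTG2 had 2 in 2164 bases, while GADD45B had 0 in 658 bases. TOB1 had 4 copies in 757 bases, BTG3 had 3 in 440 bases, BTG1 had 5 in 3802 bases, TOB2 had 3 in 2819 bases and GADD45G had 0 in 476 bases. The median over 19146 genes was 1.48 copies per kb, in UTRs of a median 1103.5 bases.

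None of the genes for the machinery through which BTG and TOB shorten poly(A) tails passed the test. Of 17 genes for CCR4-NOT subunits, PAN2-PAN3, poly(A)-binding proteins and PRMT1, 0 rose and 0 fell by edgeR, and 0 passed with DESeq2 or limma-voom, which called 2.05% and 2.00% of all genes with an adjusted p. By edgeR 6 of the 17 had an unadjusted p under 0.05, beside 17.1% of all genes tested. Their median log2 fold change was -0.029, beside -0.00055 for all genes tested. The deadenylase genes CNOT7 and CNOT8, the direct partners of the BTG domain, had values of -0.12 and -0.14 (edgeR adjusted p = 0.241 and 0.233). CNOT2, a subunit that holds the complex together, lay lowest at -0.23, with 43.9 and 45.4 CPM in CASM34 and 52.7 and 51.9 CPM in p53WT (edgeR adjusted p = 0.0579). PABPC1 had 3058 and 2904 CPM in CASM34 and 2954 and 2963 CPM in p53WT, with overlap.

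Among 19 genes for GADD45 partners and the p38 and JNK cascade 1 rose and 1 fell, beside 1.61% and 0.345% of all genes tested. CDKN1A, which encodes p21, rose with 517 and 531 CPM in CASM34, against 390 and 413 CPM in p53WT (log2 fold change 0.38, SE 0.048, edgeR adjusted p = 0.00274). CDK1, the kinase that GADD45A can inhibit, fell with 114 and 122 CPM in CASM34, against 137 and 141 CPM in p53WT (log2 fold change -0.23, SE 0.048, edgeR adjusted p = 0.0286). CDK1 did not pass when p53WT replicate 1, p53WT replicate 2 or CASM34 replicate 1 was left out, at -0.26, -0.21 and -0.19 (edgeR adjusted p = 0.101, 0.170 and 0.0851), while CDKN1A passed in every fit that left out 1 library. Under the GC and length offset CDKN1A lay at 0.25 (edgeR adjusted p = 0.0378) and CDK1 at -0.14 (edgeR adjusted p = 0.176). Neither passed with the effective length offset (edgeR adjusted p = 0.175 for CDKN1A and 0.293 for CDK1) or with limma on log2(TPM + 1) (adjusted p = 0.260 for CDKN1A and 0.338 for CDK1). Those fits called only 0.0188% and 0% of all genes tested, so failing them says little about a single gene. MAP3K4, the kinase that GADD45 proteins activate, had 45.5 and 43.1 CPM in CASM34 and 43.7 and 45.1 CPM in p53WT (edgeR adjusted p = 0.995). The clamp gene PCNA had a log2 fold change of -0.093 and the p38 gene MAPK14 one of -0.043 (edgeR adjusted p = 0.381 and 0.742). The list had a median of 0.039, and DESeq2 called 3 of its genes and limma-voom 2, with no DESeq2 adjusted p for MAP2K6, MAPK10 and MAPK13.

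Of 9 genes for DNA demethylation, a process to which GADD45A has been linked, 0 passed by edgeR, DESeq2 or limma-voom (1.95%, 2.05% and 2.00% of all genes did). By edgeR 2 of the 9 had an unadjusted p under 0.05, beside 17.1% of all genes tested. Their median log2 fold change was -0.057, and TET1 and NEIL1 had no adjusted p in DESeq2. Of 15 transcription factor genes known to act on these families 14 were tested, 0 rose and 1 fell, beside 1.61% and 0.345% of all genes tested, with a median of 0.019. That gene was BRCA1, known to induce GADD45A, with 49.5 and 45.4 CPM in CASM34 and 58.5 and 56.4 CPM in p53WT (log2 fold change -0.27, SE 0.060, edgeR adjusted p = 0.0392). BRCA1 did not pass when p53WT replicate 1, p53WT replicate 2 or CASM34 replicate 2 was left out, at -0.25, -0.30 and -0.22 (edgeR adjusted p = 0.206, 0.130 and 0.0597). It did not pass with DESeq2 (adjusted p = 0.0863), and it lay at -0.10 with an effective length offset (edgeR adjusted p = 0.652). The GC and length offset gave BRCA1 -0.23 (edgeR adjusted p = 0.114). ATF4, FOXO3 and EGR1, other known inducers of GADD45 or BTG genes, had log2 fold changes of -0.10, 0.089 and 0.20 (edgeR adjusted p = 0.301, 0.508 and 0.50).

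**Figure D4:**
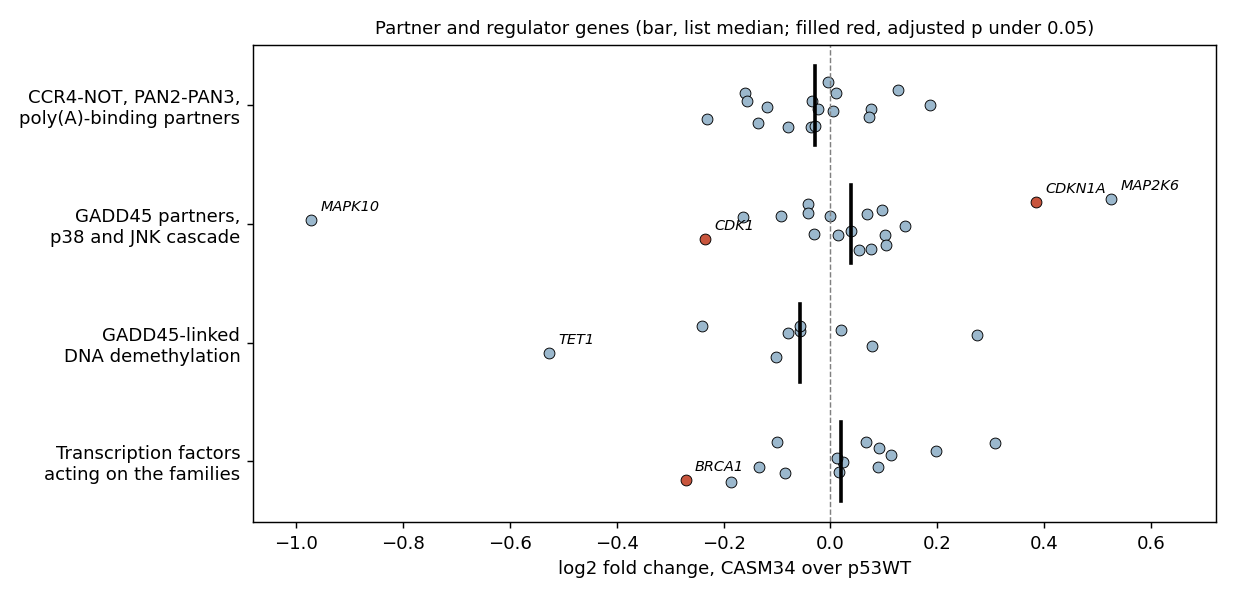
Log2 fold change of the tested genes in 4 lists of partners and regulators (points, spread vertically for legibility; bar, list median). Only CDKN1A, CDK1 and BRCA1 (red) passed by edgeR on all 4 libraries, and the list medians lie between -0.057 and 0.039; labelled genes beyond 0.4 in size that did not pass have levels under 4 CPM.

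The genes whose profile over the 4 libraries lay nearest to that of GADD45A, among 4191 genes with a mean CPM within 2-fold of it, were C8orf82, TNFRSF6B and NPDC1 (Euclidean distance of centred log2 CPM 0.0233, 0.0306 and 0.0322). Their log2 fold changes were 0.27, 0.28 and 0.31, and such values follow from choosing genes by their profile in these same libraries. Their transcripts had 70.5%, 65.9% and 68.8% GC, above the 58.4% of GADD45A, so an offset on GC moves them further. With the GC and length offset these 3 genes lay at -0.11, 0.032 and -0.021, where GADD45A lay at 0.19. Nearest to BTG2, among 3923 genes, were GPR153, ADCK5 and DRAXIN (distance 0.0991, 0.106 and 0.124), with 65.9%, 63.5% and 53.1% GC beside 51.6% for BTG2. None of these 3 passed (edgeR adjusted p = 0.122, 0.124 and 0.0617).

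The member results were recomputed under 16 other settings. All of them used the same 4 libraries or a part of them, so they add no replicates. In GADD45A, BTG2, TOB1 and TOB2 both CASM34 libraries lay above both p53WT libraries. For these genes, leaving out a library could hardly turn the sign. GADD45A stayed above 0 in all 16, between 0.19 and 0.32, and passed in 11. BTG2 stayed above 0 in all 16, between 0.33 and 0.62, and passed in 3. TOB1 stayed above 0 in all 16, between 0.033 and 0.079, and passed in 0, and GADD45B, BTG1, BTG3 and TOB2 each had values on both sides of 0 and passed in 0.

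**Figure D5:**
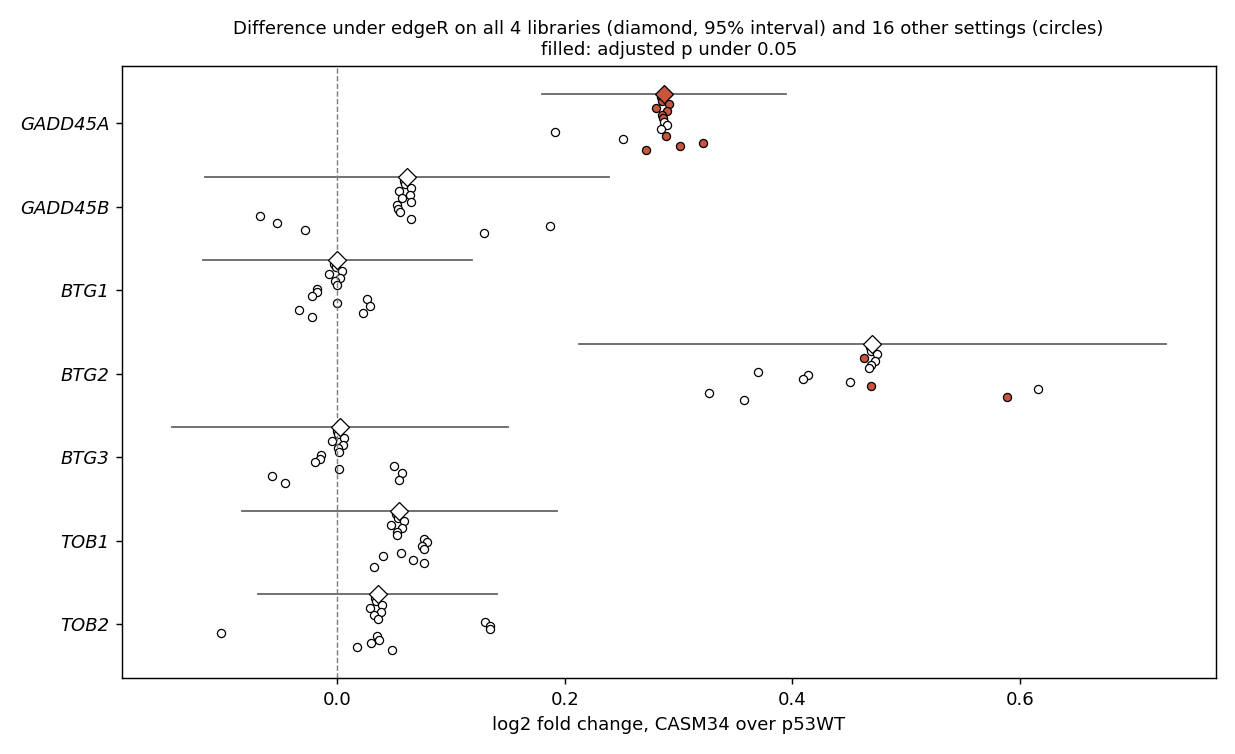
Log2 fold change of the 7 tested members by edgeR on all 4 libraries (diamond, with its 95% interval) and under 16 other settings (circles); filled symbols have an adjusted p under 0.05. GADD45A and BTG2 lie to the right of 0 in every setting, GADD45A from 0.19 to 0.32 and BTG2 from 0.33 to 0.62. All settings use the same 4 libraries or a part of them and add no replicates. The other members lie between -0.10 (TOB2) and 0.19 (GADD45B).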

How the data were processed

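Poly(A) RNA was sequenced in 4 libraries. The submitters' processing notes name STAR, RSEM, Trim Galore and the build GRCh38, with versions, annotation release and strand setting not given in the sources used here. Per the file headers, the deposited tables hold TPM, FPKM (not used here), the expected count and the effective length of each gene. The authors' RSEM run shares reads among matching gene models, so 8.63% to 9.26% of genes per library carried a fractional count (tolerance 0.001).

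Symbols were matched by gene ID for 61803 of 61852 IDs. None of the 8 members' IDs has the same version in GENCODE 29, whose coordinates and transcript GC content (the mean over a gene's transcripts) are given. Expected counts were rounded and tested with edgeR 4.0.16 in R 4.3.3 (TMM, filterByExpr with a minimum count of 10, quasi-likelihood F test, group only). The common dispersion was 0.00193, and CPM values use the TMM factors. The SE of a log2 fold change was its size over the root of F, and 95% intervals use the t distribution with the test's degrees of freedom. Counts differed within groups by more than counting error (chi-square per degree of freedom 3.92 in CASM34 and 3.86 in p53WT). The files of a group thus do not repeat one another within sampling noise, and files of different groups were not compared this way. Alternatives were other scalings and filters, DESeq2 1.42.0, limma-voom (limma 3.58.1), limma on log2(TPM + 1) and log2(TPM + 0.1), an effective length offset, an offset from natural splines (5 degrees of freedom each) on GC content and length, a replicate block and leaving out each library. The test was checked on simulated counts. The members, lists and tests were chosen with earlier results of these data known. Named genes are the 8 members, up to 4 passing genes per list, and the 3 nearest profiles to the member with the lowest p in each family; other genes are named for their known roles or position, after values were seen.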

Additional observations from a re-analysis of the deposited data

How the results depend on the processing

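The count of 1 member that rose became 2 with no filter on low counts and with the replicate block, 0 with limma on log2(TPM + 1), with limma on log2(TPM + 0.1), with the effective length offset and with the GC and length offset, and between 0 and 2 when each library was left out. No member fell under any setting. Of all genes in each fit, 2.97% were called in either direction with no filter, 7.26% with the replicate block and 0.363% with the GC and length offset. The effective length offset called 0.0188%, and either limma on log2 TPM called 0%. Direction turned for GADD45B with the GC and length offset (-0.068), where leaving out each library gave -0.053 to 0.19, and for TOB2 with that offset (-0.10). BTG1 turned to -0.0024 with median-of-ratios scaling, -0.0012 with upper-quartile scaling, -0.0068 with no filter, -0.0021 with DESeq2, -0.017 and -0.018 with limma on log2 TPM (pseudocount 1 and 0.1), -0.022 with the effective length offset and -0.00051 with the replicate block, and leaving out each library gave -0.034 to 0.029. BTG3 turned to -9.0e-05 with median-of-ratios scaling, -0.0046 with no filter, -0.014 and -0.015 with limma on log2 TPM and -0.020 with the effective length offset, and leaving out each library gave -0.057 to 0.057. Among genes near in profile, C8orf82 and NPDC1 turned to -0.11 and -0.021 with the GC and length offset.

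For the CCR4-NOT list, where 0 genes passed, 1 rose and 2 fell with the replicate block, 1 fell with no filter or with a mean CPM of at least 1, and 0 to 1 fell when each library was left out. For GADD45 partners, 0 rose with either limma on log2 TPM or the effective length offset, 0 fell with those or the GC and length offset, 2 fell with no filter, DESeq2 or the replicate block, and 0 to 1 fell when each library was left out. For the transcription factors, 0 fell with library-total scaling, DESeq2, either limma on log2 TPM, the effective length offset or the GC and length offset, and 0 to 1 fell when each library was left out. The cause was not tested. Shares of summed expected counts, which are not divided by length, were 34.8% in CASM34 and 35.3% in p53WT for TOB2. They were 16.4% in CASM34 and 17.0% in p53WT for BTG3, and 7.84% in CASM34 and 5.86% in p53WT for BTG2. The mean shares by TPM were 20.8% in CASM34 and 19.7% in p53WT for TOB2. For BTG3 they were 30.2% in CASM34 and 31.8% in p53WT, and for BTG2 6.60% in CASM34 and 5.15% in p53WT.

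The number of genes called was 312 on all libraries and 1159 with the replicate block, 81 and 92 when replicate 1 or 2 of p53WT was left out, 482 and 885 when replicate 1 or 2 of CASM34 was, 777 with no filter, 3 with the effective length offset and 0 with limma on log2 TPM. With the GC and length offset it was 58, split into 28 higher and 30 lower in CASM34, beside 257 and 55 without it. The labels do not say whether same-numbered libraries were prepared together. Their deviations from the group means had a correlation of 0.034 across genes, which cannot settle whether they form pairs. Under the replicate block BTG2 passed at 0.47 (edgeR adjusted p = 0.000368). BTG2 had the fewest counts of the tested members (300 to 441 per library) and the largest SE (0.12). How much of that SE comes from depth was not tested.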
